A study of Mus musculus with 4 samples.

Results

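Cholesterol and fatty acids are built from acetyl-CoA by enzyme chains whose genes are largely under shared control, and 32 genes of these chains were followed here in cultured heart muscle cells given microRNAs. The set was drawn up by gene symbol: 7 enzymes from acetyl-CoA to farnesyl diphosphate, 9 enzymes from squalene to cholesterol, 6 regulators and carriers around the SREBP transcription factors, 8 enzymes of fatty acid synthesis and desaturation, and 2 cholesterol exporters. All 32 were found among the 27267 genes of the files, in 37 transcript records, and all 32 reached the minimum used here, a mean level of 1 CPM or more (CPM, reads of a gene scaled to a library of fixed size), as did 13502 genes in all. No measured value entered the choice of the members by rule, although the list was drawn up with earlier results of these data known.

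As background, SREBP factors are held in the endoplasmic reticulum by the escort protein Scap and its anchors Insig1 and Insig2 while sterol is plentiful. When sterol falls, Scap carries them to the Golgi, where proteases release the active factors, which switch on the genes of sterol and fatty acid synthesis. Surplus cholesterol leaves cells through the transporters Abca1 and Abcg1, which are induced by the oxysterol-sensing liver X receptors (LXR).

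Cells were neonatal cardiomyocytes of CD1 mice at postnatal day 1, seeded in dishes and transfected by the reverse method with a lipid reagent. The 4 conditions were mock transfection, the Caenorhabditis elegans control mimic cel-miR-67, the human mimic hsa-miR-590-3p and, as the other human mimic, hsa-miR-199a-3p, each mimic at 50 nM, with RNA taken 72 h later. There was 1 library per condition, and how many animals each was made from is not stated in the labels. With 0 residual degrees of freedom no test and no p-value could be computed, so every difference below lacks a replicate check. A gene was counted as different for a microRNA only when it differed in the same direction from each control, mock and cel-miR-67, by 2-fold or more, or by 1.5-fold or more in a wider count.

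The mouse mature miR-199a-3p entry of RefSeq (GRCm38.p6), which is encoded at 2 loci, is shown because most differences below belong to the library given this microRNA. Its seed, bases 2 to 8, the stretch that pairs with target transcripts, is in capitals. The sequence of the human mimic itself was not used here.
mmu-miR-199a-3p: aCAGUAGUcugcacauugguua

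Depth was 31638930 reads in mock, 34255689 under cel-miR-67, 34452240 under hsa-miR-590-3p and 38745528 under hsa-miR-199a-3p. The labelled cell type was borne out by its markers, and all 6 cardiomyocyte genes were measured. Their summed level was 41376 CPM in mock, 37650 under cel-miR-67, 28002 under hsa-miR-590-3p and 27767 under hsa-miR-199a-3p. Myh6 and Tnnt2 gave 20236 and 7777 CPM of the mock sum, with 0.16% and 0.0018% of their reads placed uniquely. Actc1, with 99.98% unique reads, gave 10290 CPM. The summed level of 6 fibroblast markers lay between 8797 and 9789 CPM in the 4 libraries and that of 5 endothelial markers between 159 and 217 CPM, so transcripts typical of other heart cells were present. The summed level of 6 macrophage markers was 8.49 CPM in mock and 4.07 to 4.66 CPM in the other libraries. Of 7 adipocyte markers, which were checked because fat cells are rich in lipogenic transcripts, Cidec, Cfd and Lep had no read in any library, Plin1 at most 1 and Adipoq at most 4, and the summed level of the list did not exceed 3.89 CPM. Its measured genes were Pparg, with 75, 91, 43 and 29 reads in the order above, and Fabp4, with 35, 39, 37 and 59. In such bulk samples fewer cells of a type and less RNA per cell cannot be told apart.

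Per transcript length the lipid genes spanned a wide range in the mock library. Scd2, a stearoyl-CoA desaturase that introduces the double bond of oleate, was the most abundant at 196 RPKM, the authors' unit, which divides reads by transcript length and by library size. Fdps, the synthase of farnesyl diphosphate, followed at 99.5 RPKM, and the fatty acid desaturases Fads1 and Fads2 stood at 58.9 and 55.9 RPKM. Among genes of squalene and sterol steps the highest was Cyp51, the lanosterol demethylase, at 25.3 RPKM, and among the regulators Insig1 at 36.1 RPKM. The lowest were the exporter Abcg1 at 2.62 RPKM and Tm7sf2, a sterol reductase, at 3.59 RPKM. The exporter Abca1 stood at 7.84 RPKM in mock, 8.87 under cel-miR-67, 8.58 under hsa-miR-590-3p and 3.61 under hsa-miR-199a-3p.

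**Figure D1:**
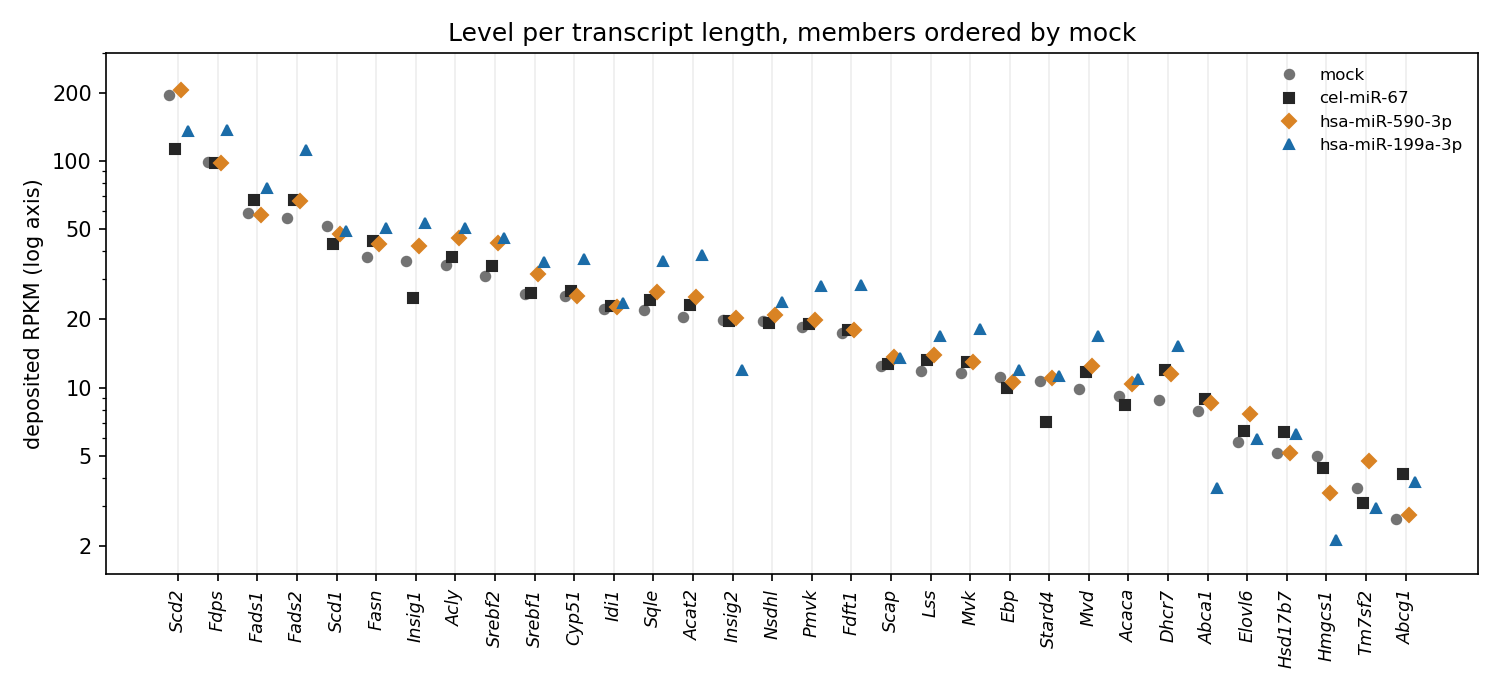
Deposited RPKM (log axis) of the 32 genes in each of the 4 libraries, ordered by their level in mock, 1 point per library. The triangles of hsa-miR-199a-3p lie above the other 3 libraries for Fdps, Fads2, Acat2 and Fdft1 and below them for Insig2 and Abca1.

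Under hsa-miR-199a-3p 11 of the 16 listed enzymes from acetyl-CoA to cholesterol were modestly higher than in both controls, while the sterol exporter Abca1 and the SREBP anchor Insig2 were lower. In a further list of sterol synthesis genes, described after the members, 3 of 6 measured were above both controls and 2 below. Of the 32 members 19 lay above both controls (59.4%, where 40.2% of all genes tested did) and 7 below both (21.9%, where 41.9% did). The median log2 ratio of the members was 0.26 against cel-miR-67 and 0.33 against mock, beside 0.00 and -0.01 over all genes tested. No member was 2-fold higher than both controls, a background of 2.40%, and 2 were 2-fold lower, a background of 2.34%. These were Abca1 and Hmgcs1, and the second of them does not hold once 4 records of a similarly annotated gene are added, as described below. At 1.5-fold, Acat2 and Fads2 were higher (background 6.72%) and Abca1, Hmgcs1 and Insig2 lower (background 8.38%). At 1.5-fold the members' share was thus near that of all genes, in either direction. With library totals in place of TMM factors, the share above among members off both controls was 85.2% in place of 73.1%, while the median of all genes was then 0.09 and 0.10. Of all genes tested 50.7% then lay above both controls and 32.7% below both, the rest between them.

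**Figure D2:**
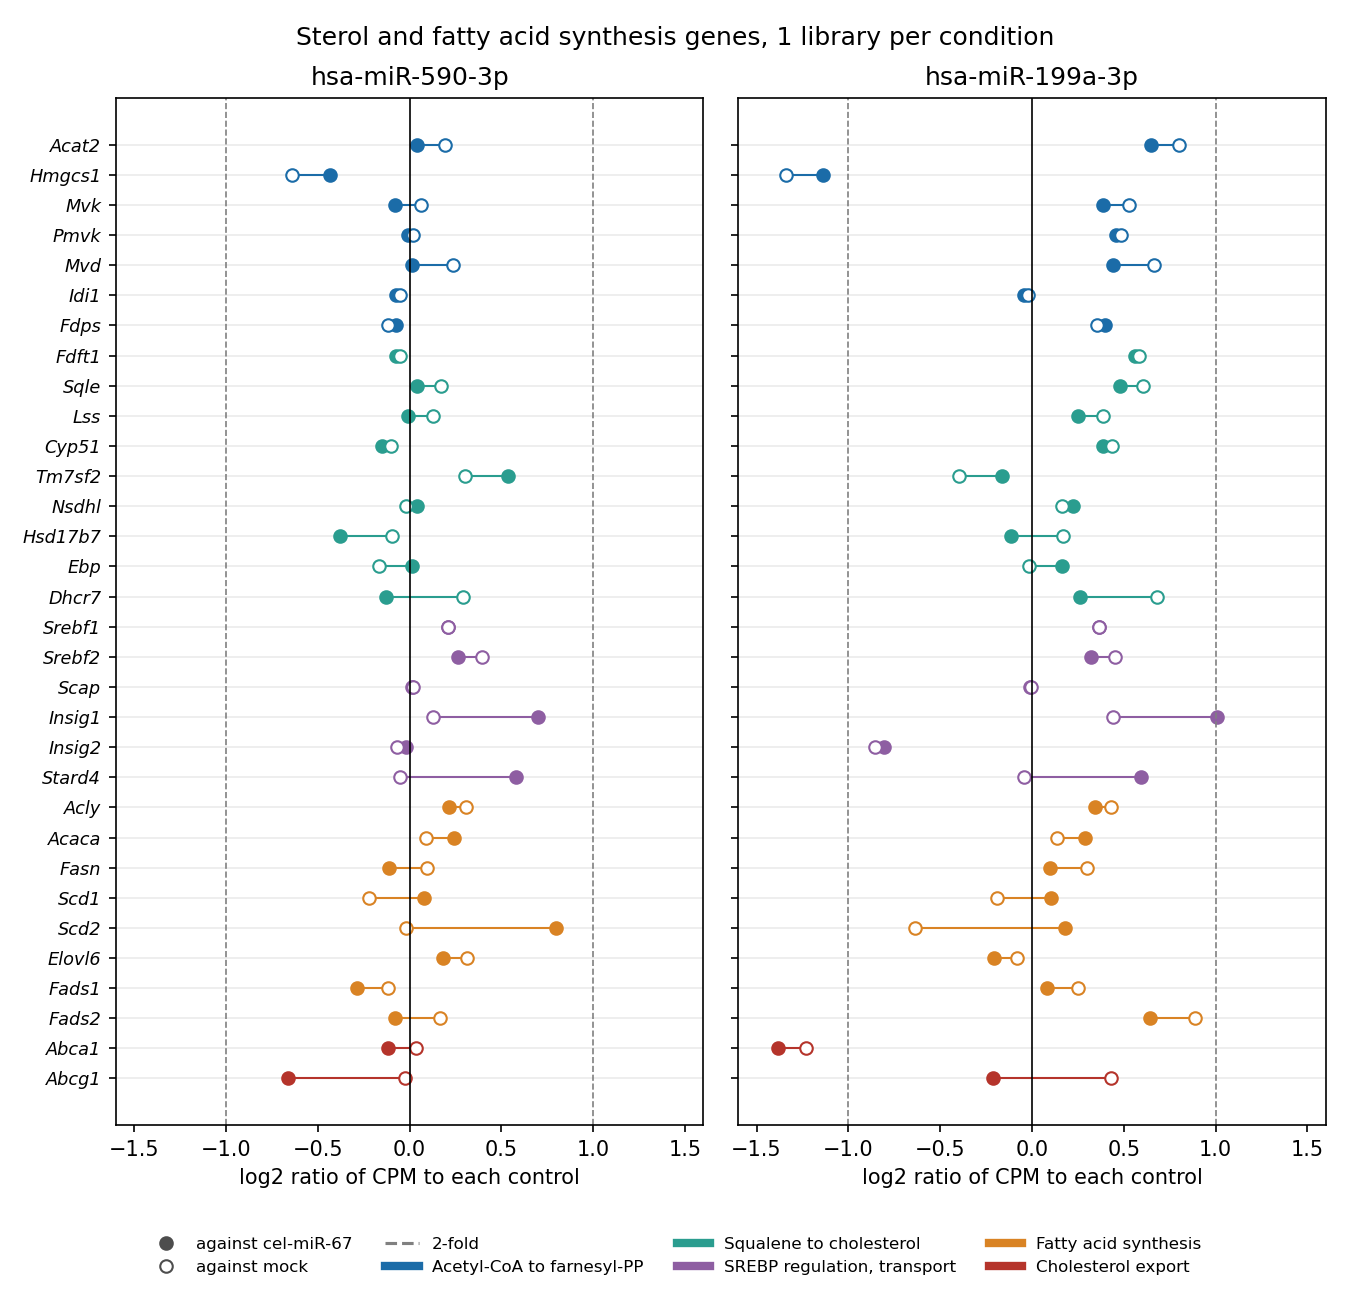
Log2 ratio of scaled CPM for each of the 32 genes under hsa-miR-590-3p (left) and hsa-miR-199a-3p (right), against cel-miR-67 (filled) and mock (open), 1 library per condition, coloured by role. On the right most enzymes lie between 0 and 1, with Abca1 and Hmgcs1 beyond -1, and on the left every gene stays inside the 2-fold lines.

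The enzymes that turn acetyl-CoA into farnesyl diphosphate had a median log2 ratio of 0.40 against cel-miR-67 and 0.49 against mock under hsa-miR-199a-3p. Of these 7 enzymes 5 lay above both controls, where 40.2% of all genes tested did. Acat2, the cytosolic thiolase that joins acetyl-CoA units, had 1349 reads in mock, 1650 under cel-miR-67, 1792 under hsa-miR-590-3p and 3110 under hsa-miR-199a-3p. Scaled to library size these are 44.4, 49.3, 50.7 and 77.2 CPM. The hsa-miR-199a-3p library thus stood apart from the other 3, with ratios of 1.57 against cel-miR-67 (95% counting interval 1.47 to 1.66) and 1.74 against mock (1.63 to 1.86). These intervals are exact conditional binomial intervals and cover counting error only, as the reads carry no molecular identifiers and PCR copies of a molecule are counted separately. Only 55.2% of the reads of Acat2 were placed uniquely, and with those reads alone its log2 ratios were 0.69 and 0.86.

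Downstream, Mvd, which makes isopentenyl diphosphate, had 551, 710, 756 and 1160 reads in mock, under cel-miR-67, under hsa-miR-590-3p and under hsa-miR-199a-3p, and log2 ratios of 0.44 and 0.67 under hsa-miR-199a-3p. It has 2 records in the files, and 3.7% of its reads were placed uniquely. These 20, 29, 29 and 41 reads gave log2 ratios of 0.22 and 0.64, the first of them smaller than with all reads. Pmvk, phosphomevalonate kinase, likewise has 2 records and 17% uniquely placed reads, with totals of 701, 786, 825 and 1302 and log2 ratios of 0.46 and 0.49, or 0.51 and 0.37 on unique reads. Mvk, mevalonate kinase, whose reads were all unique, stood at 0.38 and 0.53. Fdps, the most abundant gene of this stretch, had 3848, 4108, 4127 and 6514 reads, that is 126.6 and 122.8 CPM in mock and under cel-miR-67, 116.8 under hsa-miR-590-3p and 161.7 under hsa-miR-199a-3p. Its log2 ratios under hsa-miR-199a-3p were 0.40 and 0.35. In the middle of the chain Idi1, the isomerase of isopentenyl diphosphate, was level in all libraries, with 66.4, 67.4, 63.9 and 65.4 CPM.

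Hmgcs1, the cytosolic HMG-CoA synthase on the way to mevalonate, appeared to go the other way, with 518 reads in mock, 495 under cel-miR-67, 387 under hsa-miR-590-3p and 271 under hsa-miR-199a-3p. Its log2 ratios under hsa-miR-199a-3p were -1.14 and -1.34. Uniquely placed reads of this record numbered only 3, 2, 2 and 1 in that order. The files hold 4 further records, all under the symbol LOC100040592 and annotated as a predicted cytoplasmic HMG-CoA synthase-like gene, with 5215, 4939, 6653 and 7142 reads, of which 37, 28, 49 and 48 were unique. The Hmgcs1 record took 9.04% of the summed reads of the 5 records in mock, 9.11% under cel-miR-67, 5.50% under hsa-miR-590-3p and 3.66% under hsa-miR-199a-3p. Summed over the 5 records, the level was 189 CPM in mock, 162 under cel-miR-67, 199.2 under hsa-miR-590-3p and 184 under hsa-miR-199a-3p.

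On that sum the hsa-miR-199a-3p library lay between the controls, with log2 ratios of 0.18 against cel-miR-67 and -0.04 against mock, and ratios of 1.13 (counting interval 1.09 to 1.17) and 0.976 (0.942 to 1.01). For hsa-miR-590-3p the sum gave 0.29 and 0.08, in place of -0.43 and -0.64 for the Hmgcs1 record. The low value of Hmgcs1 in both microRNA libraries was thus not seen in the sum. That its reads are shared with these records is inferred from their annotation and low unique counts, and sequences were not compared. With so few unique reads, no difference of this gene can be read from its own record. Adding the 4 records was decided after their counts were seen.

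**Figure D3:**
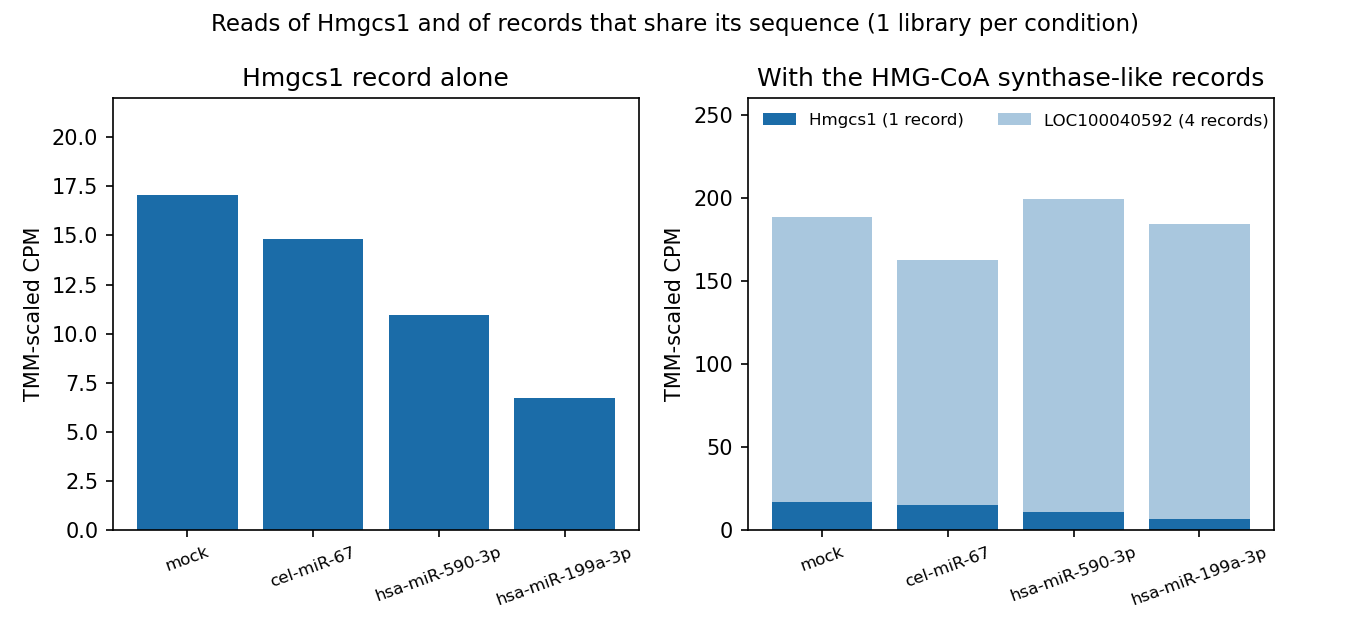
Bars give scaled CPM of the Hmgcs1 record alone (left) and stacked with the 4 LOC100040592 records (right) in the 4 libraries, 1 per condition. The single record stands at 17.0 CPM in mock and 6.73 under hsa-miR-199a-3p, while the stacked bars lie between 162 and 199.2 CPM.

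From squalene to cholesterol 6 of 9 enzymes lay above both controls under hsa-miR-199a-3p and 1 below, with medians of 0.25 and 0.39. Of all genes tested 40.2% lay above both and 41.9% below. Fdft1, squalene synthase, had 1588 reads in mock, 1778 under cel-miR-67, 1782 under hsa-miR-590-3p and 3156 under hsa-miR-199a-3p. Its scaled level was 50.4 to 53.2 CPM in the other 3 libraries and 78.4 CPM under hsa-miR-199a-3p, a ratio of 1.47 against cel-miR-67 (1.39 to 1.56) and a log2 ratio of 0.58 against mock. It thus stopped just short of 1.5-fold. Sqle, squalene epoxidase, the oxygen-requiring step that follows, had 62.7, 68.6, 70.5 and 95.5 CPM and log2 ratios of 0.48 and 0.61. Lss, which closes the ring to lanosterol, stood at 0.25 and 0.39.

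Among the later steps Cyp51 had 114.7 CPM in mock, 118.7 under cel-miR-67, 107.1 under hsa-miR-590-3p and 155.3 under hsa-miR-199a-3p, again with the last library apart, and log2 ratios of 0.39 and 0.44. Dhcr7, the reductase of the final step, stood at 0.26 and 0.68, a spread that reflects controls at 26.1 (mock) and 34.8 CPM (cel-miR-67). Nsdhl, which removes carbon at the sterol ring, was only slightly higher at 0.22 and 0.17. Ebp, a sterol isomerase, and Hsd17b7, a sterol ketone reductase, lay between the controls.

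Tm7sf2, a reductase of the same chain that acts beside other sterol reductases, differed from its neighbours. It was the least read member, with 170 reads in mock, 159 under cel-miR-67, 244 under hsa-miR-590-3p and 171 under hsa-miR-199a-3p, or 5.59, 4.75, 6.90 and 4.25 CPM. The hsa-miR-590-3p library was the highest and the hsa-miR-199a-3p library the lowest. The ratio of hsa-miR-590-3p to hsa-miR-199a-3p was 1.62 (1.33 to 1.99), whereas the interval of hsa-miR-199a-3p against cel-miR-67, 0.715 to 1.12, held 1.

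Of the 6 genes that set SREBP activity 3 lay above both controls under hsa-miR-199a-3p and 2 below, with medians of 0.34 and 0.18. Of all genes tested 40.2% lay above both and 41.9% below, so no common direction can be read from these counts. Srebf2, the factor chiefly tied to sterol genes, had 147, 161, 193 and 201 CPM in mock, under cel-miR-67, under hsa-miR-590-3p and under hsa-miR-199a-3p. Srebf1, whose product chiefly drives fatty acid genes, had 115.5, 115.4, 133.6 and 148.7 CPM. For these 2 genes both microRNA libraries lay above both controls, with log2 ratios of 0.36 and 0.36 for Srebf1 and 0.32 and 0.45 for Srebf2 under hsa-miR-199a-3p, and of 0.21 and 0.21, and 0.26 and 0.39, under hsa-miR-590-3p. Scap, the escort, was level at 55.7 to 56.7 CPM in the 4 libraries on the sum of its 2 records. Of its reads 1.0% were placed uniquely. With its most read record alone, its log2 ratio under hsa-miR-199a-3p against cel-miR-67 shifted by 0.26.

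The 2 Insig genes, whose products anchor the same complex, stood on opposite sides under hsa-miR-199a-3p. Insig2 had 1542 reads in mock, 1642 under cel-miR-67, 1713 under hsa-miR-590-3p and 1129 under hsa-miR-199a-3p. Its level was 50.7, 49.1, 48.5 and 28.0 CPM, so the other 3 libraries were nearly equal and hsa-miR-199a-3p alone was low. The ratios were 0.571 against cel-miR-67 (0.529 to 0.616) and 0.553 against mock (0.511 to 0.597). Of its reads 47.3% were placed uniquely, and these gave log2 ratios of -0.88 and -0.82, close to -0.81 and -0.86 for all reads.

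Insig1, itself a well-known SREBP target, had 3048 reads in mock, 2260 under cel-miR-67, 3877 under hsa-miR-590-3p and 5479 under hsa-miR-199a-3p, or 100.3, 67.6, 109.7 and 136 CPM. The cel-miR-67 library was the lowest, so that the hsa-miR-199a-3p ratio was 2.01 against it (1.92 to 2.12) but 1.36 against mock (1.30 to 1.42). Stard4, a carrier of cholesterol between membranes, showed the same low control. It had 33.3 CPM in mock, 21.5 under cel-miR-67, 32.1 under hsa-miR-590-3p and 32.4 under hsa-miR-199a-3p, and both microRNA libraries were thus level with mock.

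Fatty acid synthesis genes lay nearer the controls, with medians of 0.14 and 0.19 under hsa-miR-199a-3p. Above both controls were 5 of 8, where 40.2% of all genes tested were. Acly, which makes cytosolic acetyl-CoA from citrate, stood at 160.3, 170.3, 197.9 and 216.4 CPM in mock, under cel-miR-67, under hsa-miR-590-3p and under hsa-miR-199a-3p, with 2 records and 1.7% of its reads placed uniquely. Its log2 ratios were 0.35 and 0.43 under hsa-miR-199a-3p with all reads and 0.45 and 0.56 with the 76, 89, 135 and 147 unique ones. Under hsa-miR-590-3p they were 0.22 and 0.30 with all reads and 0.52 and 0.63 with unique reads, and the ratio of hsa-miR-590-3p to hsa-miR-199a-3p went from -0.13 to 0.07, so the order of the microRNA libraries for Acly is not settled. Acaca, the acetyl-CoA carboxylase of lipogenesis, had log2 ratios of 0.29 and 0.13, and Fasn, fatty acid synthase, of 0.10 and 0.30. Elovl6, an elongase, stood at 35.8, 39.1, 44.4 and 33.9 CPM in the same order, highest under hsa-miR-590-3p and lowest under hsa-miR-199a-3p, with log2 ratios of -0.21 and -0.08 in the latter. These were all small beside the 2-fold limit.

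Among these genes Fads2 was the furthest from both controls. This enzyme, which begins the synthesis of long polyunsaturated fatty acids, had 2669 reads in mock, 3479 under cel-miR-67, 3479 under hsa-miR-590-3p and 6545 under hsa-miR-199a-3p. At 87.8, 104, 98.4 and 163 CPM, hsa-miR-199a-3p was the only library apart, with ratios of 1.56 against cel-miR-67 and 1.85 against mock (1.77 to 1.94). Fads1, which acts later on the same substrates, had 213.0 CPM in mock, 239.9 under cel-miR-67, 196.4 under hsa-miR-590-3p and 253.8 under hsa-miR-199a-3p. Its log2 ratios under hsa-miR-199a-3p were only 0.08 and 0.25.

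Scd2 was set apart by its controls instead. It had 1114 CPM in mock, 631 under cel-miR-67, 1098 under hsa-miR-590-3p and 716 under hsa-miR-199a-3p, so mock and hsa-miR-590-3p were high and cel-miR-67 and hsa-miR-199a-3p were low. Its log2 ratios were 0.80 and -0.02 under hsa-miR-590-3p and 0.18 and -0.64 under hsa-miR-199a-3p, and neither microRNA has a direction here. The share of reads on ribosomal RNA divided the libraries in the same way, with 0.812% in mock and 0.637% under hsa-miR-590-3p against 0.369% under hsa-miR-199a-3p and 0.375% with cel-miR-67, and its part in the levels of Scd2 was not tested. Scd1, its close relative, stood between 213 and 262 CPM in the 4 libraries and lay between the controls under both microRNAs.

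Abca1, the transporter that loads cholesterol onto apolipoprotein particles, was the only member 2-fold away from both controls on reads that were all unique. It had 2546 reads in mock, 3117 under cel-miR-67, 3034 under hsa-miR-590-3p and 1437 under hsa-miR-199a-3p, or 83.8, 93.2, 85.8 and 35.7 CPM. The hsa-miR-199a-3p library was low and the other 3 were alike, with ratios of 0.383 (0.359 to 0.408) against cel-miR-67 and 0.426 (0.399 to 0.454) against mock. Abcg1, which exports cholesterol to formed lipoprotein particles, did not follow it. Its 15.9, 24.7, 15.6 and 21.4 CPM in mock, under cel-miR-67, under hsa-miR-590-3p and under hsa-miR-199a-3p left hsa-miR-199a-3p between the controls. Its 2 lower libraries, mock and hsa-miR-590-3p, were those with more ribosomal RNA, whose part in this was not tested either.

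Macrophages, which can be rich in Abca1, are scarcely seen in these libraries: the reads of Ptprc, Csf1r, Cd68, Adgre1, C1qa and Cd14 numbered at most 72 in any library. Fibroblast markers were split under hsa-miR-199a-3p, with medians of -0.63 and -0.35. Of these, 4 of 6 were below each control, where 41.9% of all genes were. They were Postn (-2.05 and -1.61), Pdgfra (-0.94 and -0.68), Dcn (-0.82 and -0.79) and Tcf21 (-0.45 and -0.02). The interval of Tcf21 against mock, 0.911 to 1.07, held 1. Of the reads of Postn, Pdgfra and Dcn 2.5%, 1.3% and 6.8% were placed uniquely. Col1a1 (0.31 and 0.22) and Col1a2 (0.18 and 0.09) were above both controls. The summed level of the list was highest under hsa-miR-199a-3p, at 9789 CPM. Of the 6 cardiomyocyte markers 5 were lower than each control, and the list's medians were -0.40 and -0.56. The other, Myl7, was higher than each control, at 0.80 and 0.54. The part of these cells in the lower Abca1 and Insig2, and in the higher sterol enzymes, was not tested.

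**Figure D4:**
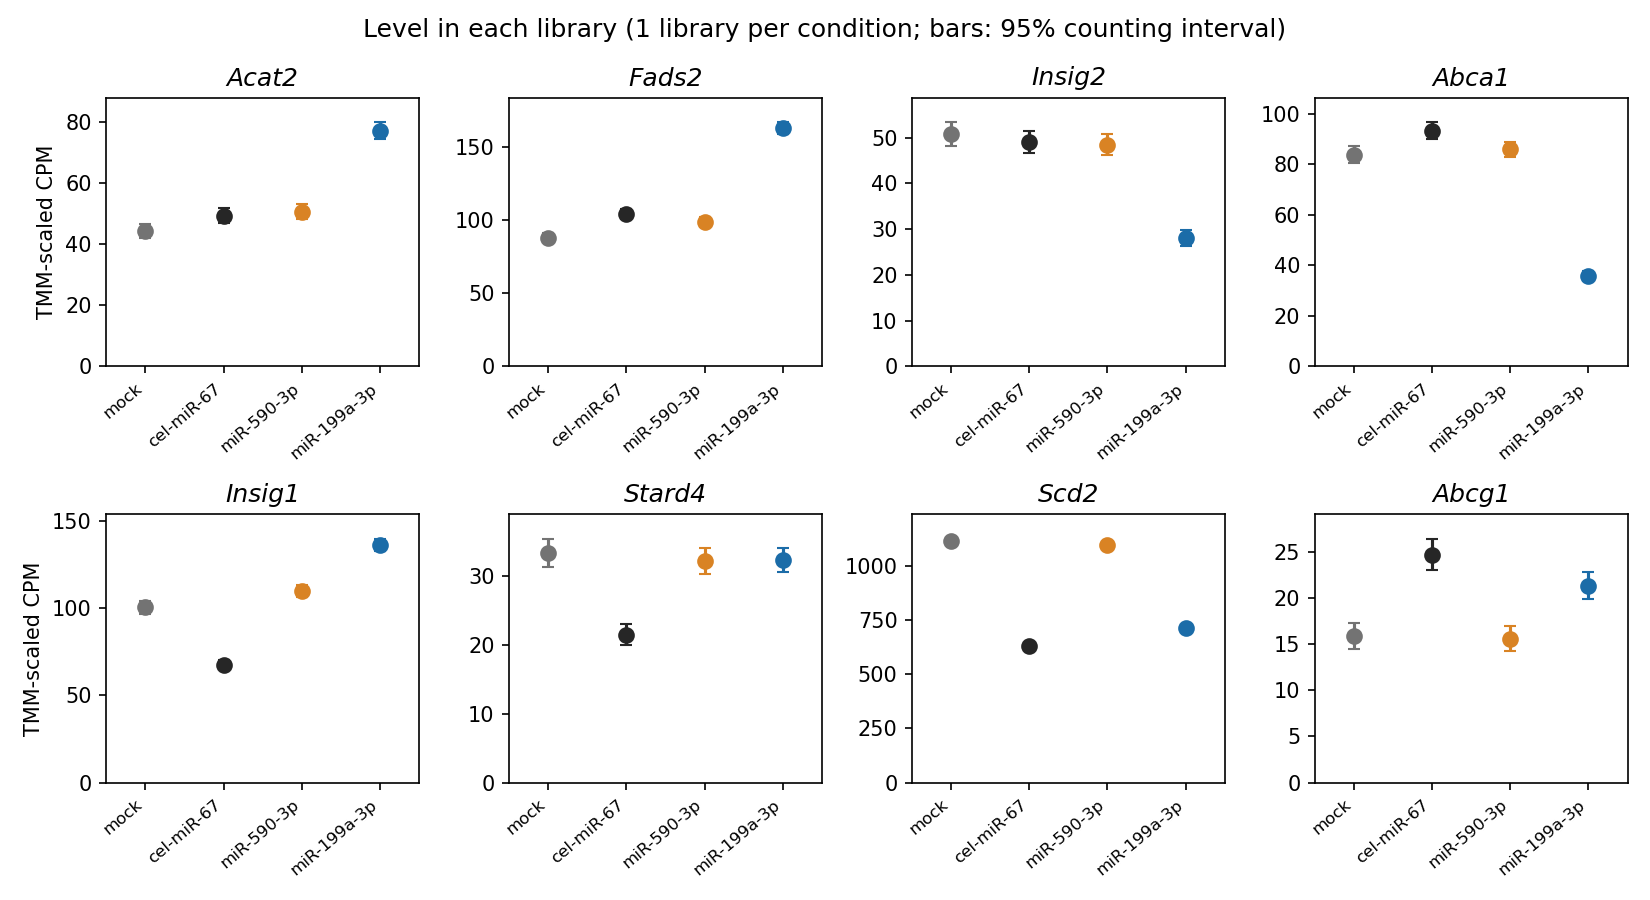
Scaled CPM of 8 genes in each library (1 point per library, 1 library per condition), with bars for the exact Poisson 95% counting interval. In the upper row hsa-miR-199a-3p stands apart from the other 3 libraries, whereas in the lower row the 2 controls differ from each other.

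Under hsa-miR-590-3p the members showed no common shift. Medians were 0.00 against cel-miR-67 and 0.03 against mock, beside 0.00 and -0.01 for all genes tested. Above both controls lay 11 of 32 members (34.4%, background 35.6%) and below both 9 (28.1%, background 36.6%). No member was 2-fold higher (background 0.356%) or lower (background 0.230%), and none reached 1.5-fold against both controls (background 2.68% higher and 1.36% lower). The 16 enzymes from acetyl-CoA to cholesterol had medians of -0.04 and 0.00, with 4 above and 6 below both controls. The 6 regulators had medians of 0.24 and 0.07 with 4 above and 1 below, and the 8 fatty acid genes 0.13 and 0.09 with 3 above and 1 below. Both microRNAs are read against the same 2 control libraries. Furthest above both controls were Tm7sf2 (0.54 and 0.30), Srebf2, Acly (0.22 and 0.30) and Srebf1. With library totals in place of TMM factors the share above among members off both controls was 77.3% in place of 55.0%, and with the deposited RPKM 81.0%. That scaling moved all genes alike, with medians over all genes tested of 0.07 against cel-miR-67 and 0.09 against mock and 49.0% of them above both controls with library totals. Insig1 (0.70 and 0.13), Stard4 (0.58 and -0.05) and Scd2 (0.80 and -0.02) were high mainly against cel-miR-67, and Abcg1 (-0.66 and -0.03) was low mainly against it.

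The same genes set the controls apart. Between cel-miR-67 and mock 2 of 32 members were at least 1.5-fold lower, where 4.18% of all genes were, and 1 was higher, where 2.82% were. These were Scd2 at a ratio of 0.567 (0.557 to 0.577), Stard4 at 0.644 (0.584 to 0.709) and Abcg1 at 1.56 (1.39 to 1.75). Insig1, at 0.674 (0.638 to 0.712), came close. For Scd2, Stard4, Insig1 and Abcg1 the hsa-miR-590-3p library was near mock, and 1 mock library against 1 cel-miR-67 library cannot say which of the 2 stands off. The median of the members between the controls was 0.04, with 20 higher and 12 lower under cel-miR-67, where 49.7% of all genes were lower.

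Set directly against each other, the 2 microRNA libraries differed in most of the listed sterol enzymes. The members had a median log2 ratio of -0.19 for hsa-miR-590-3p over hsa-miR-199a-3p, beside 0.00 for all genes, and 25 of 32 were lower under hsa-miR-590-3p (background 49.6%). Of the 16 enzymes from acetyl-CoA to cholesterol 14 were lower, with a median of -0.41. At 1.5-fold, Fads2 (0.606, counting interval 0.581 to 0.631), Fdft1 (0.643, 0.607 to 0.682) and Acat2 (0.657, 0.619 to 0.696) were lower under hsa-miR-590-3p (background 6.50%). Abca1 (2.40, 2.26 to 2.56), Insig2 (1.73), Tm7sf2, Scd2 (1.53, 1.51 to 1.56) and the uncertain Hmgcs1 were higher (background 10.7%).

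Other genes of these pathways, 61 in 5 lists of which 58 were measured, had medians of 0.00 against either control under hsa-miR-199a-3p, with 26 above both controls and 26 below. Under hsa-miR-590-3p 20 were above and 22 below. Over all genes tested the shares above and below both controls were 40.2% and 41.9% under hsa-miR-199a-3p. For hsa-miR-590-3p they were 35.6% and 36.6%. In a list of 8 further genes of sterol synthesis 6 were measured, and their medians under hsa-miR-199a-3p were 0.03 and -0.01, with 3 above and 2 below both controls. Among them Msmo1, a sterol methyl oxidase, stood at 0.08 and 0.31, and Sc5d, a sterol desaturase, at -0.46 and -0.38. Of 12 genes of sterol uptake, trafficking and storage 5 lay above and 6 below both controls, with medians of -0.18 and 0.01. Mylip, an LXR-induced ligase that marks lipoprotein receptors for breakdown, was higher, with 312, 294, 508 and 624 reads in mock, under cel-miR-67, under hsa-miR-590-3p and under hsa-miR-199a-3p and ratios of 1.76 and 1.51 in the last. It has 2 records, and 46.1% of its reads were placed uniquely, numbering 149, 144, 244 and 264 in the same order. These counts are not scaled, and the hsa-miR-199a-3p library had the most unique reads in all. They thus do not show that Mylip reached 1.5-fold on unique reads. Vldlr, a lipoprotein receptor, was lower at 0.568 and 0.397, with 2 records and 2.3% of its reads placed uniquely. Soat2, a sterol esterifying enzyme, was lower under hsa-miR-590-3p at 0.577 (0.371 to 0.877) and 0.422 (0.275 to 0.628), on 37 reads.

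Of 8 genes of SREBP processing 4 lay above and 4 below both controls under hsa-miR-199a-3p, beside 40.2% and 41.9% of all genes tested. Erlin2, a membrane protein of sterol-regulated degradation, was lower at 0.480 (0.446 to 0.515) and 0.583 (0.540 to 0.629). Of 21 measured further genes of lipogenesis 10 lay above and 9 below, with medians of 0.12 and 0.00. Thrsp, a thyroid hormone responsive protein tied to lipogenesis, had 33 reads in mock, 48 under cel-miR-67, 64 under hsa-miR-590-3p and 188 under hsa-miR-199a-3p, ratios of 3.23 (2.36 to 4.56) and 4.26 (2.96 to 6.43). Mlxipl, the carbohydrate-sensing factor of lipogenic genes, had 56, 37, 88 and 142 reads and ratios of 3.16 (2.21 to 4.71) and 1.91 (1.39 to 2.66). Both are weakly expressed genes whose hsa-miR-199a-3p library was the highest of the 4. Dgat1, which makes triglyceride, was lower at 0.605 and 0.586.

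Scd4, another desaturase of the Scd family, had 332 reads in mock, 250 under cel-miR-67, 511 under hsa-miR-590-3p and 158 under hsa-miR-199a-3p. It lay above both controls under hsa-miR-590-3p (ratios of 1.93 and 1.32) and below both under hsa-miR-199a-3p (0.526 and 0.360), on reads of which 89.8% were unique. Among 11 LXR factors and targets 4 lay above and 5 below both controls under hsa-miR-199a-3p, beside 40.2% and 41.9% of all genes tested. Abcg4, a sterol transporter, was higher under hsa-miR-199a-3p with 80 reads against 26 and 26 (2.53 and 2.30), and under hsa-miR-590-3p with 50, a ratio of 1.64 against mock. Lpcat3, a phospholipid-remodelling enzyme, was lower under hsa-miR-199a-3p at 0.635 and 0.588.

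Promoter windows were read for the members to show the sequence before their starts. RefSeq (GRCm38.p6) windows of 250 bases before to 50 after a start were at hand for 24 of 32 members and for 27025 genes in all, and letters were matched on both strands. The core of the sterol regulatory element, TCACNCCAC, was in 1 of 24 members, Hmgcs1, and in 1.44% of all genes with a window. CCAAT, bound by NF-Y, a usual partner of SREBP, was in 18 of 24 and in 41.1% of all genes. The E-box CACGTG was in 5 of 24 (Abca1, Dhcr7, Hsd17b7, Insig1 and Scap) and in 8.09% of all genes. The LXR-type direct repeat of AGGTCA with 4 bases between the copies was in no member and in 0.0148% of all genes. These matches describe letters in a short window and are neither sites nor causes.

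The windows of Hmgcs1, Insig1, Insig2 and Abca1 are shown because these genes are described at length above. No difference of Hmgcs1 could be read, and Insig1 did not reach 1.5-fold against mock under hsa-miR-199a-3p. Capitals mark TCACNCCAC, CACGTG and CCAAT or their reverse complements, none of which overlap each other here. Hmgcs1 has the sterol element core starting 137 bases before the start and 4 CCAAT matches, Insig1 has 1 E-box and 1 CCAAT match, Insig2, at the first of its 3 listed starts, has 3 CCAAT matches, and Abca1 has 1 E-box.
Hmgcs1, chr13:119690101-119690400, plus strand: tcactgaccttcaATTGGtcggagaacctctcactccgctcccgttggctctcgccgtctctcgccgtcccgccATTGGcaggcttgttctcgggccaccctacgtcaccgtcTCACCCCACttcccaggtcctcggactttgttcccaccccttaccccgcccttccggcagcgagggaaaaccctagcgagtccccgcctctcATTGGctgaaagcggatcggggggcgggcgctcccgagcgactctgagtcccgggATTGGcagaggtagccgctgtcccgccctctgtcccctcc
Insig1, chr5:28071162-28071461, plus strand: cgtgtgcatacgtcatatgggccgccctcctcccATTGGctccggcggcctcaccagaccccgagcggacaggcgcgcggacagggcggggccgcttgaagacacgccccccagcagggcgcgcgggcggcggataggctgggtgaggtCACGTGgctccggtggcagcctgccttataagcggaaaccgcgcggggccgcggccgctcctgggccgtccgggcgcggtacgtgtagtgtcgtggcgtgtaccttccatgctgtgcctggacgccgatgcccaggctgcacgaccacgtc
Insig2, chr1:121332540-121332839, minus strand: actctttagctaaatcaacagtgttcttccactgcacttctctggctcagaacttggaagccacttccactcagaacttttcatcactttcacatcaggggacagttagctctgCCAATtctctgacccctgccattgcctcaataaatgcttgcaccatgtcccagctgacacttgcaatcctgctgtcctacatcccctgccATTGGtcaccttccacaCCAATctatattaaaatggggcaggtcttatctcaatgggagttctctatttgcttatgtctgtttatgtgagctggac
Abca1, chr4:53159846-53160145, minus strand: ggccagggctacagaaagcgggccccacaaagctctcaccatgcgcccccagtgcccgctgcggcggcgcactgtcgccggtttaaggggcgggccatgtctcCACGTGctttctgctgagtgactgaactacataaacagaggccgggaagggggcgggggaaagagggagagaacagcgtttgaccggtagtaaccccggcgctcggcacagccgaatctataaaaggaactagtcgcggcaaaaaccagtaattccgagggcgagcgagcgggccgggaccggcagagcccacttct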

How the data were processed

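The authors deposited 1 table per library with 36065 RefSeq records; its columns, per the file headers, hold read counts (all reads, and those placed uniquely), a length and an RPKM. The deposited RPKM was checked to be total reads divided by length and by library size. CASAVA 1.8 and mm8 stand in the submitters' processing notes with no role. The mapping and counting programs are not given in the sources used here. Total reads include reads shared between records, so members with under 50% unique reads are marked.

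Samples were grouped by the treatment in their labels. Symbols came from RefSeq by accession for 27926 records (77.4%) and from the files for the other 8139, and counts were summed per gene. TMM factors from edgeR 4.0.16 under R 4.3.3 scaled the counts, and no model was fitted. Log2 ratios of CPM had a prior count of 0.5 and were taken for genes whose mean was 1 CPM or more. Ratio intervals are exact Clopper-Pearson 95% intervals. DESeq2 1.42.0 size factors, library totals, RPKM, unique reads, single records, other filters, a prior count of 2 and other controls were alternatives. The steps were tested on simulated data. Python 3.11.15, numpy 2.4.6, pandas 2.3.3, scipy 1.17.1 and matplotlib 3.10.9 were used.

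The members and lists were chosen with earlier results of these data known. Named genes were members at least 1.5-fold from both controls, the most abundant of each role, those on opposite sides under the microRNAs, those whose controls differ 1.5-fold and those under 50% unique; of other pathway genes, up to 4 per list at least 1.5-fold from both controls. Further values are given for the other members. A gene that the rule selects is not reported here.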

Additional observations from a re-analysis of the deposited data

Results flagged for a closer look

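Several genes lay above both controls under one microRNA and below both under the other. The difference was not tested, since each condition has 1 library, and 19.5% of all genes tested lay on opposite sides in this way, against 7 of the 32 members. The log2 ratio of hsa-miR-590-3p over hsa-miR-199a-3p was -0.64 for Fdft1, -0.54 for Cyp51, -0.47 for Fdps and -0.37 for Fads1, which were lower under hsa-miR-590-3p. It was 0.70 for Tm7sf2, 0.39 for Elovl6 and 0.025 for Scap, which were higher. For Scap all 4 libraries lay within 1 CPM of each other on the sum of its 2 records. For Fdft1, Cyp51 and Fdps the side taken under hsa-miR-590-3p rested on log2 ratios no lower than -0.15. Against cel-miR-67 and mock these were -0.08 and -0.05 for Fdft1, -0.15 and -0.10 for Cyp51 and -0.07 and -0.12 for Fdps. Scaling by library totals moved the median of all genes under hsa-miR-590-3p to 0.07 and 0.09. For Elovl6 the side taken under hsa-miR-199a-3p rested on a log2 ratio of -0.08 against mock. The counting interval of that ratio, 0.874 to 1.03, held 1. Among the other pathway genes named it was 1.88 for Scd4.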

How the results depend on the processing

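No paired analysis was possible because each condition has 1 library, and for the same reason no library could be left out of a group. Scaling by library totals moved the median of all genes under hsa-miR-199a-3p against mock to 0.10. With library totals the members above and below both controls were 17 and 5 under hsa-miR-590-3p and 23 and 4 under hsa-miR-199a-3p, while 49.0% and 50.7% of all genes lay above. With the deposited RPKM the members were 17 and 4, and 23 and 4. The median under hsa-miR-199a-3p against mock was 0.44 with either. With uniquely placed reads 1 of 30 measured members, Abca1, was 2-fold lower under hsa-miR-199a-3p, as Hmgcs1 and Scap had too few reads. With the LOC100040592 records added to Hmgcs1, an alternative chosen after seeing the data, it was 1 as well, and the log2 ratio of Hmgcs1 against cel-miR-67 turned to 0.18. With cel-miR-67 alone as control, also chosen afterwards, 1 member, Insig1, was 2-fold higher under hsa-miR-199a-3p. The other alternatives left these counts within 1.5 times. They left these medians between the median lower and the median upper counting bound of the single members, which is not an interval of the median itself. Counted over all reads, depth did not limit the members, the least read of which had 159 reads or more in every library. Uniquely placed reads were few for some members, at 1 to 3 per library for Hmgcs1, 18 to 23 for Scap and 20 to 41 for Mvd. Having 1 library per condition leaves the spread between cultures unknown.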
